A study of Mus musculus with 12 samples.

Results

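The genes described here write, copy, read or erase DNA methylation: the methyltransferases *Dnmt1*, *Dnmt3a* and *Dnmt3b*, the maintenance factor *Uhrf1*, the dioxygenases *Tet1*, *Tet2* and *Tet3*, and the methyl-CpG reader *Mbd2*. They were taken by symbol, as 8 of the 24561 genes of a count table, and all 8 were among the 12719 genes that passed the filter on low counts. Messenger RNA came from CXCR5hiPD-1hi follicular helper T (Tfh) cells of C57BL/6 mice, 3 days after NP-OVA immunization. The cells were OT-II T cells, which carry a transgenic receptor for an ovalbumin peptide, and were sorted from the draining lymph nodes of CD45.1 Sap-/- hosts that had received either *Cd4-cre* cells (wild-type label) or *Cd4-cre* × *Bcl6* fl/+ cells (BCL6-insufficient label). Each label had 3 recipient mice, and each mouse gave a pair of libraries of about 200 sorted cells, so there were 12 libraries in all. Both labels carry the Cre transgene, which is active in T cells from the thymus onward, and they differ in a single floxed *Bcl6* allele. The Sap-/- hosts keep their own lymphocytes but form few germinal center Tfh cells of their own. How many donor mice supplied the cells of this transfer was not given in the sources used here, so genotype and donor may not be separable.

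The libraries held 3343375 to 8315722 counts. *Bcl6* itself had 150, 146 and 150 normalized CPM (CPM, counts divided by the scaled library size) in the mice labelled BCL6-insufficient and 54.8, 75.6 and 56.9 in those labelled wild-type, which goes against the label, so every direction below rests on the labels alone and would turn if they were exchanged. The counts do not separate a deleted from an intact allele. The T cell genes *Cd3d*, *Cd3e* and *Cd3g* and the Tfh genes *Cxcr5* and *Pdcd1* were present in all 6 mice, and *Ascl2*, another Tfh gene, was near 0. Of 14 Tfh and T cell identity genes tested, 3 were higher (*Icos*, *Maf* and *Bcl6*) and 5 lower (*Cd4*, *Cxcr5*, *Pdcd1*, *Tox2* and *Tcf7*) with the BCL6-insufficient label, at an adjusted p under 0.05 in edgeR, where 9.17% of all genes tested were higher and 8.82% lower. The summed level of 13 B cell markers was 522 to 743 CPM with the BCL6-insufficient label and 616 to 878 with the wild-type label, most of it *Ighm*, and none of the 9 tested was called. BCL6-insufficient mouse 2 and wild-type mouse 3 stood apart in several of the other B cell markers: *Cd74* was at 52.3 and 37.8 CPM in them and at 4.22 to 11.4 in the other 4 mice, *H2-Aa* was at 15.8 and 12.7 against 5.14 or less, and *Cd79a* was at 10.6 and 7.66 against 1.85 or less. Without BCL6-insufficient mouse 2 the log2 fold changes of *Mbd2*, *Uhrf1* and *Tet3*, the genes called below, were 1.26, -0.53 and -0.47, and without wild-type mouse 3 they were 1.16, -0.42 and -0.52, with each of them called in both fits. For 9 myeloid markers found in the table the sums were 108 to 132 and 84.0 to 89.7, most of it *Cst3*, with *Lyz2* called higher. *Lyz2* was at 16.5 CPM in BCL6-insufficient mouse 1 and at 3.67 or less in the other 5 mice, and *S100a8* was at 14.0 CPM in BCL6-insufficient mouse 2 and at 0 in the other 5. For 5 CD8 and NK cell markers they were 22.6 to 33.0 and 27.0 to 39.9, most of it *Cd8b1* (21.1 to 39.6 in every mouse), with *Cd8a* at or near 0. For 5 regulatory T cell markers the sums were 223 to 254 and 139 to 209, most of it *Ikzf2*, which was called higher, while *Foxp3* averaged 3.59 and 5.38 CPM. The part of these other cell types in the results below was not tested. In bulk RNA, fewer cells of a type and less RNA per cell cannot be told apart.

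Methylation of cytosine in CpG dinucleotides is copied after each round of DNA replication by DNMT1, which is brought to half-methylated DNA by UHRF1. DNMT3A and DNMT3B set new marks. The TET enzymes oxidize the methyl group with 2-oxoglutarate, oxygen and iron, after which the mark can be lost by replication or replaced by base excision repair. MBD2 binds methylated CpG and recruits the NuRD complex, which carries histone deacetylases and a nucleosome remodeller. In T cells these genes are known from the control of lineage genes, and loss-of-function mutations of *TET2* and *DNMT3A* are frequent in human T cell lymphomas of Tfh type.

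The promoters of *Uhrf1* and *Tet3* are shown because these are the members that were lower with the BCL6-insufficient label. RefSeq promoter windows on GRCm38.p6 were used for 7 of the 8 genes (12 windows). The 250 bases before each start were searched on both strands. No window of *Mbd2* was searched, so the matches and absences below leave it out. Capitals mark the E2F-type letters TTTNGCGC or GGCGGGAA, sites of the factors that drive genes of the DNA synthesis phase, and every sequence runs 5′ to 3′ on the strand of its gene. The first *Uhrf1* window, chr17:56304063-56304312 (plus strand), lies in an intron of the gene model, before the start at 56304313. The second, chr17:56303087-56303320 (plus strand), lies upstream of the gene, before the start at 56303337, and the 16 bases next to that start are an exon and are not printed. The *Tet3* window, chr6:83441679-83441928 (minus strand), lies in an intron of the gene model, before the start at 83441678, and reaches the noncoding gene *B230319C09Rik* on the other strand.
Uhrf1, start 56304313: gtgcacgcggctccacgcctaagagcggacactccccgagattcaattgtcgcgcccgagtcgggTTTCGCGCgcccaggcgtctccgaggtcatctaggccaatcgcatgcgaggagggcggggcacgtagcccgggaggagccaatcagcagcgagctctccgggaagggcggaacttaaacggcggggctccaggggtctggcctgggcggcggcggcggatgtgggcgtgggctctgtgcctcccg
Uhrf1, start 56303337: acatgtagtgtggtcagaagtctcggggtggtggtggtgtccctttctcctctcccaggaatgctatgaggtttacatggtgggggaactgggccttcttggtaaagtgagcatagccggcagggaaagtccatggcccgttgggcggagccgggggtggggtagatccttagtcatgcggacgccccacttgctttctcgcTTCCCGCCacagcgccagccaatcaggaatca
Tet3, start 83441678: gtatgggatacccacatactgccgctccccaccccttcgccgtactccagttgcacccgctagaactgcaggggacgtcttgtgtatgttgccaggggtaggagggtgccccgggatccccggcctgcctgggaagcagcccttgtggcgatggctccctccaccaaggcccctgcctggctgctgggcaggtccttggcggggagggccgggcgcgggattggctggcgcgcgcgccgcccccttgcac

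In the first *Uhrf1* window the match TTTCGCGC stood 185 bases before the start, and in the second the match TTCCCGCC, which is GGCGGGAA on the other strand, stood 48 bases before it. *Tet3* had neither. *Dnmt1* had a match to TTTNGCGC, GCGCGAAA, 219 bases before its start at 20952623 on chromosome 9, inside an exon of another transcript. Over 32851 windows of 27025 genes, 1.13% held TTTNGCGC and 1.86% held GGCGGGAA. None of the 12 windows held the BCL6-type letters TTCCNNGAA, found in 4.06% of all windows, or the wider STAT-type letters TTCNNNGAA, which include them and were found in 7.02%. The windows shown held 30 and 10 CpG dinucleotides for *Uhrf1* and 17 for *Tet3*, against a median of 6 over all windows, and the window of *Tet2* held 51. A match is a description of letters and not a site, and its absence says nothing of a factor.

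Of the 8 genes, *Mbd2* was higher and *Uhrf1* and *Tet3* were lower with the BCL6-insufficient label, at an adjusted p under 0.05 in the quasi-likelihood test of edgeR, adjusted by Benjamini-Hochberg over all genes tested (called, below). Among all 12719 genes tested, 18.0% were called, 9.17% higher and 8.82% lower, so 1 of 8 higher is near that background and 2 of 8 lower is a small count above it. The ranges of the mice did not overlap between labels for 4 of the 8 genes (*Mbd2*, *Uhrf1*, *Tet3* and *Dnmt1*), against 34.4% of all genes tested. The median log2 fold change was 0.011 over all genes and 0.07 over these 8. The plot of CPM by mouse shows both repeats of every mouse.

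**Figure D1:**
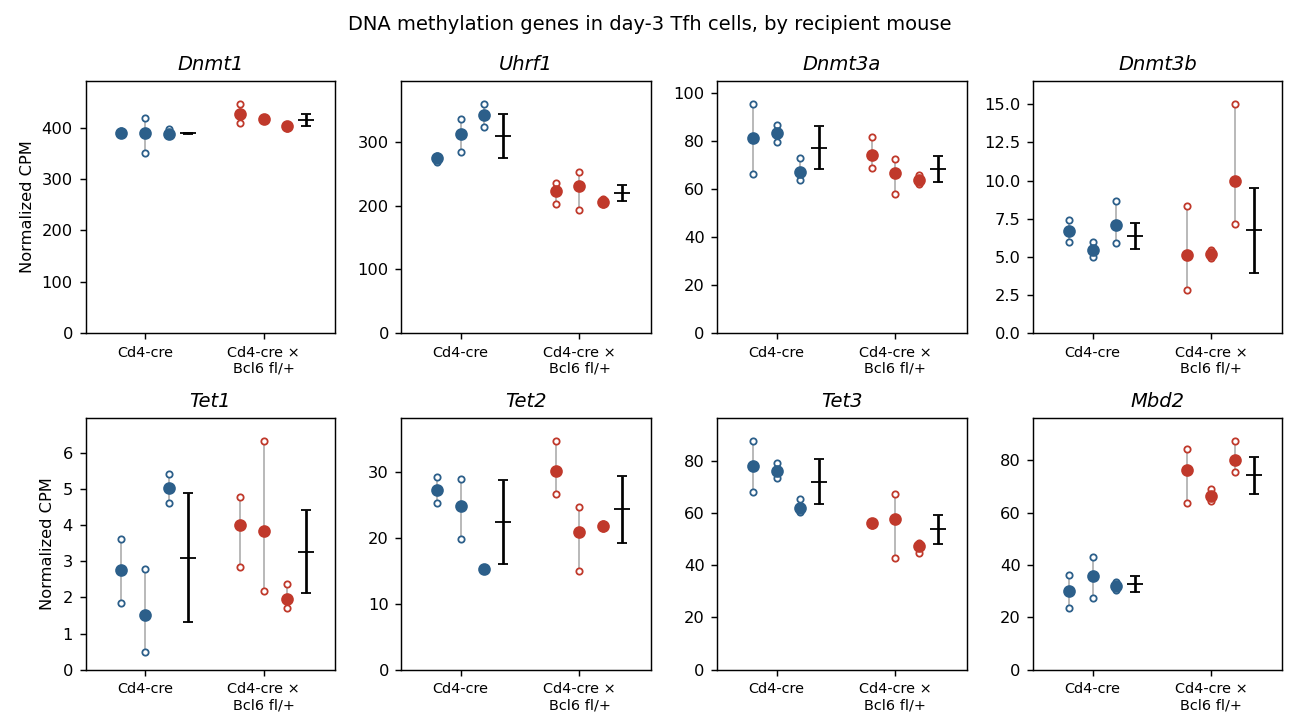
Normalized CPM (vertical axis, from 0) of the 8 genes in 3 recipient mice of each genotype. Filled points are mice with their repeats summed, open points joined by a line are the pair of technical repeats, and the black mark is the mean ± SD of the 3 mice. Mbd2 lay at 66.5 to 80.2 in the mice labelled BCL6-insufficient and at 29.9 to 36.0 in the others, whereas Tet1 and Dnmt3b overlapped between the genotypes.

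*Mbd2* (chromosome 18, 70568189 to 70626131, plus strand) encodes the methyl-CpG reader that joins methylated DNA to NuRD. It had 76.2, 66.5 and 80.2 CPM in the mice labelled BCL6-insufficient and 29.9, 36.0 and 32.0 in those labelled wild-type. The lowest of the 6 BCL6-insufficient libraries, at 63.6, stood above the highest of the 6 wild-type libraries, at 43.1. The means were 74.3 ± 7.07 (SD, n = 3) and 32.6 ± 3.08 (SD, n = 3), a log2 fold change of 1.19 (standard error 0.13, 95% interval 0.91 to 1.46, edgeR adjusted p = 2.6e-06), or 2.27-fold higher with an interval of 1.88 to 2.76. By p it ranked 39 of 12719 genes, and its change in size exceeded that of 95.4% of them. The exact permutation test over the mice gave p = 0.1 (two-sided), the smallest that 3 mice against 3 allow, and the same value held for *Uhrf1*, *Tet3* and *Dnmt1*. *Mbd2* was called in all 17 other settings tried and in all 6 fits that left out a mouse, with log2 fold changes of 0.89 to 1.41 over the settings. Its longest transcript, of 1953 bases, falls in a length class (1443 to 2488 bases) in which 6.08% of genes were called higher, with a median log2 fold change of -0.10. With trends in GC content and length removed its log2 fold change was 1.34 (edgeR adjusted p = 4.4e-07).

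*Uhrf1* (chromosome 17, 56303321 to 56323486, plus strand) encodes the ubiquitin ligase that recognizes half-methylated CpG behind the replication fork. It had 223, 231 and 207 CPM in the mice labelled BCL6-insufficient and 275, 313 and 342 in those labelled wild-type. The wild-type mice spread more, but no mouse of one label entered the range of the other, and the libraries, at 194 to 254 and 270 to 360, did not overlap either. The means were 220 ± 12.4 (SD, n = 3) and 310 ± 33.9 (SD, n = 3), a log2 fold change of -0.49 (standard error 0.10, 95% interval -0.70 to -0.29, edgeR adjusted p = 0.00133), or 0.711 of the wild-type level. *Uhrf1* was called lower in 15 of 17 other settings and in all 6 fits that left out a mouse. It was not called with technical repeat 1 only (-0.38, edgeR adjusted p = 0.0784) or on log2(TPM + 1) over all genes (-0.61, limma adjusted p = 0.0604). With GC and length trends removed it was -0.38 (edgeR adjusted p = 0.00817).

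*Dnmt1* (chromosome 9, 20907209 to 20959888, minus strand), the maintenance methyltransferase, had the most counts of the 8 genes. It stood at 427, 418 and 404 CPM in the mice labelled BCL6-insufficient and at 391, 389 and 388 in those labelled wild-type. The 3 BCL6-insufficient mice lay above the others, but the libraries, at 400 to 447 and 352 to 419, overlapped. The log2 fold change was 0.10 (standard error 0.09, 95% interval -0.08 to 0.27, edgeR adjusted p = 0.493), and it was called in none of the 17 other settings or the 6 fits without a mouse. The ratio of *Uhrf1* to *Dnmt1* counts, which needs no scaling between libraries, was 0.523, 0.553 and 0.512 in the mice labelled BCL6-insufficient and 0.703, 0.804 and 0.881 in those labelled wild-type. Over libraries it ran from 0.455 to 0.610 and from 0.696 to 0.934, without overlap.

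*Dnmt3a* (chromosome 12, 3806007 to 3914443, plus strand) is the main methyltransferase for new marks in mature T cells. It had 74.3, 66.8 and 63.8 CPM in the mice labelled BCL6-insufficient and 81.0, 83.5 and 67.1 in those labelled wild-type, with overlap between the labels. Its log2 fold change was -0.17 (95% interval -0.43 to 0.08, edgeR adjusted p = 0.358). *Dnmt3b* (chromosome 2, 153649450 to 153687730, plus strand), which serves mainly in the early embryo, had only 59 to 97 counts per mouse. It stood at 5.10, 5.16 and 9.97 CPM with the BCL6-insufficient label and at 6.68, 5.42 and 7.06 with the wild-type label, a log2 fold change of 0.07 with a wide interval of -0.62 to 0.75 (edgeR adjusted p = 0.918). The antisense gene *Dnmt3aos* overlaps exons of *Dnmt3a* and *Gm42567* overlaps exons of *Tet2*, but each had at most 0.206 CPM in any mouse. Whether counting used strand was not given in the sources used here.

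*Tet3* (chromosome 6, 83362373 to 83459084, minus strand) was the TET gene with the highest level. It had 56.0, 57.5 and 47.5 CPM in the mice labelled BCL6-insufficient and 77.8, 75.9 and 61.9 in those labelled wild-type. The mice did not overlap, but the libraries did, at 42.6 to 67.1 and 60.2 to 87.6. The means were 53.7 ± 5.40 (SD, n = 3) and 71.9 ± 8.67 (SD, n = 3), a log2 fold change of -0.42 (standard error 0.13, 95% interval -0.69 to -0.15, edgeR adjusted p = 0.0268). The call was lost without BCL6-insufficient mouse 3 (-0.34, edgeR adjusted p = 0.101), without wild-type mouse 1 (-0.37, 0.109) and without wild-type mouse 2 (-0.39, 0.0949), each of which leaves 1 gene called lower among the 8 in place of 2, and it was kept in 11 of 17 other settings. The 6 in which it was lost were each technical repeat alone, the 3 TPM fits, and the fit without wild-type mouse 2 repeat 1 and wild-type mouse 3 repeat 2 (-0.44, edgeR adjusted p = 0.0561). *Tet3* has a long transcript, of 10904 bases, in a length class in which 4.13% of genes were called lower. With GC and length trends removed it was -0.52 (edgeR adjusted p = 0.00411).

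*Tet2* (chromosome 3, 133463679 to 133545139, minus strand) and *Tet1* (chromosome 10, 62804570 to 62908996, minus strand) were not called. *Tet2* stood at 30.2, 21.0 and 21.9 CPM in the mice labelled BCL6-insufficient and at 27.4, 24.9 and 15.2 in those labelled wild-type. The labels overlapped, with a log2 fold change of 0.12 (95% interval -0.32 to 0.56, edgeR adjusted p = 0.747). *Tet1* was the lowest of the 8, with 17 to 67 counts per mouse. It stood at 4.0, 3.85 and 1.95 CPM and at 2.75, 1.51 and 5.03 in the same order, and its interval ran from -0.93 to 1.08 around a log2 fold change of 0.08 (edgeR adjusted p = 0.935). The repeats of a mouse differed for *Tet1* by a median of 0.861 and at most 2.53 on the log2 scale, and for *Dnmt1* by a median of 0.0342 and at most 0.255. The ratio of *Tet3* to *Tet2* counts was 1.85, 2.74 and 2.17 with the BCL6-insufficient label and 2.84, 3.05 and 4.06 with the wild-type label. The mice did not overlap between labels, whereas the libraries did, at 1.61 to 2.83 and 2.33 to 4.23.

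**Figure D2:**
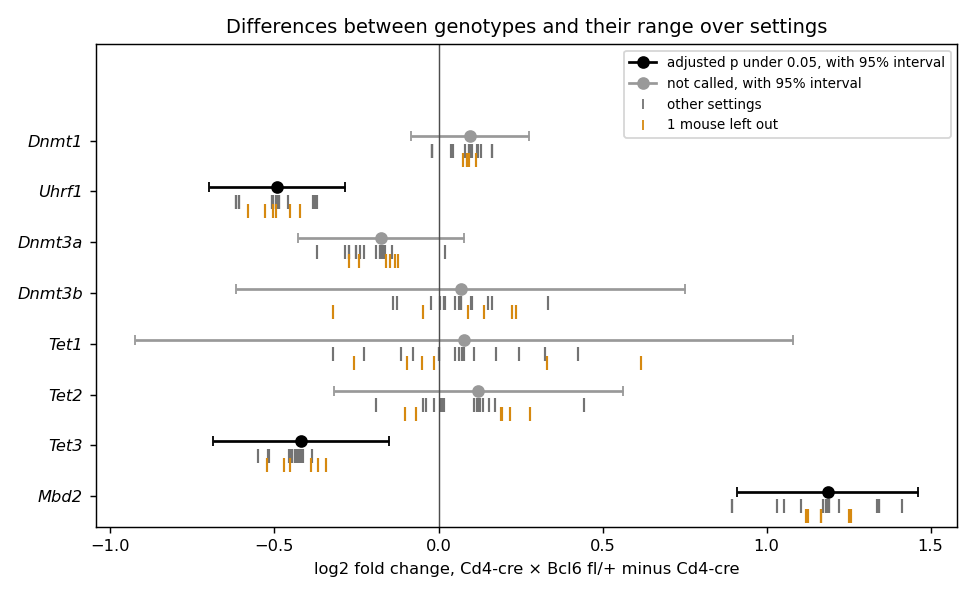
log2 fold change (horizontal axis, BCL6-insufficient label minus wild-type label) of each gene with its 95% interval from edgeR (black, adjusted p under 0.05; grey, not called). Grey ticks are the other settings and orange ticks the fits without 1 mouse. The ticks of Mbd2 stayed between 0.89 and 1.41, those of Uhrf1 and Tet3 stayed below 0, and those of the other 5 genes fell on both sides of 0.

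Levels were compared between genes per kilobase of merged exon. With the wild-type label the order was *Uhrf1* (72.8 ± 7.97 CPM per kilobase, SD, n = 3), *Dnmt1* (52.8 ± 0.152), *Mbd2* (10.2 ± 0.958), *Dnmt3a* (4.64 ± 0.530), *Tet3* (4.31 ± 0.519), *Tet2* (1.33 ± 0.380), *Dnmt3b* (1.25 ± 0.168) and *Tet1* (0.20 ± 0.116). *Dnmt3a* and *Tet3* overlapped between mice there, as did *Tet2* and *Dnmt3b*. With the BCL6-insufficient label *Dnmt1* (56.4 ± 1.6) stood above *Uhrf1* (51.7 ± 2.91), *Mbd2* rose to 23.1 ± 2.2, and the other 5 kept their order, with *Tet2* and *Dnmt3b* again overlapping. Within each label, the order per kilobase of the longest transcript matched that per kilobase of merged exon. *Dnmt1* made up 91.2% ± 0.723 of the counts per kilobase of the 3 methyltransferases with the BCL6-insufficient label and 90.0% ± 0.618 with the wild-type label. *Tet3* made up 66.2% ± 3.88 and 73.9% ± 1.54 of those of the TET genes, and *Tet1* 4.26% ± 1.14 and 3.65% ± 2.61.

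**Figure D3:**
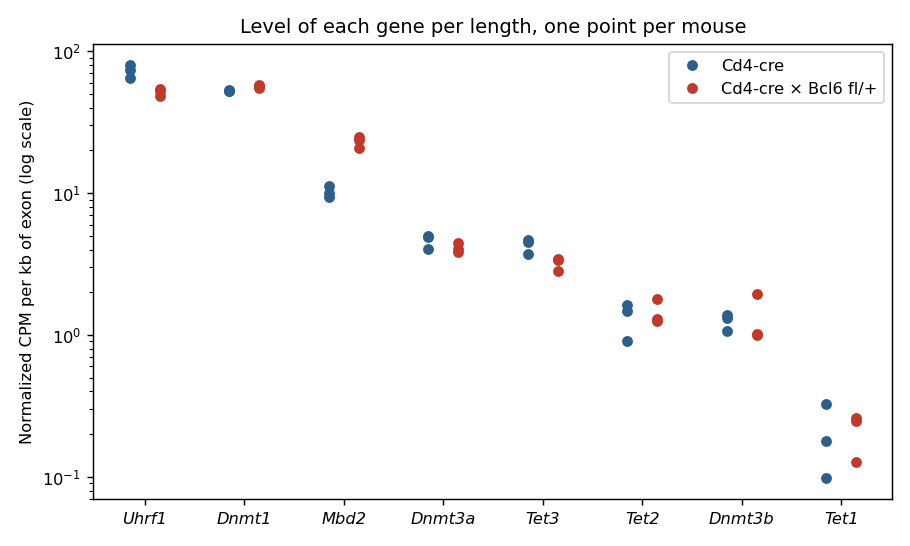
Normalized CPM per kilobase of merged exon (vertical axis, log scale) for each gene, with 1 point per mouse. Uhrf1 and Dnmt1 stood near 50 to 80, Mbd2 near 10 with the wild-type label and above 20 with the BCL6-insufficient label, and Tet1 below 0.4 in every mouse.

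**Figure D4:**
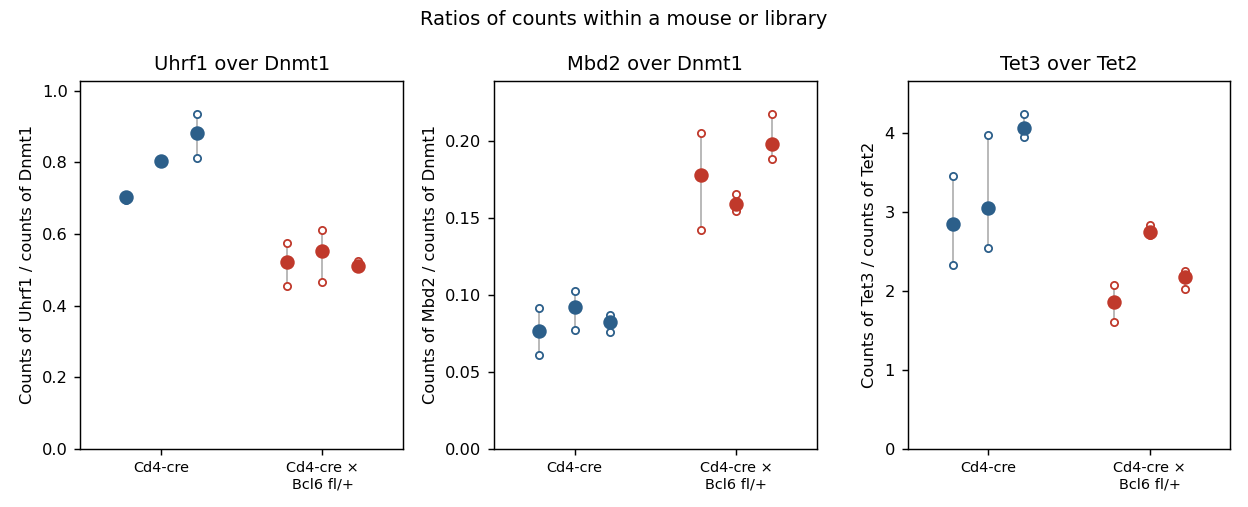
Ratios of raw counts (vertical axes, from 0) within each mouse (filled) and each library (open) for Uhrf1 over Dnmt1, Mbd2 over Dnmt1 and Tet3 over Tet2. Each ratio sets a called gene over one that was not called. The mice of the genotypes did not overlap in any of these ratios, and the libraries overlapped for Tet3 over Tet2. In a ratio not shown, Dnmt3a over Dnmt1, the mice overlapped (0.158 to 0.174 with the BCL6-insufficient label and 0.173 to 0.215 with the wild-type label).

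Genes that work with these enzymes were followed in 6 lists. The lists were chosen with earlier results of these data known, so their shares of called genes are a description and not a test. In them 67 of 73 genes were tested. Of them 9 were called higher and 13 lower, or 32.8% against 18.0% of all genes, with a median log2 fold change of -0.10. With technical repeat 1 only, 4 were higher and 4 lower, and with log2(TPM + 1) 1 was higher and 11 lower. Of 9 maintenance partners tested, 4 were higher and none lower (median 0.28), where 9.17% of all genes tested were higher. The number higher was 1 with technical repeat 1 only, with log2(TPM + 1) and with log2(TPM + 0.1), 0 with log2(TPM + 1) over all genes, 5 with GC and length trends removed, and 2 without BCL6-insufficient mouse 1, wild-type mouse 1 or wild-type mouse 2. It was also 2 without wild-type mouse 2 repeat 1 and wild-type mouse 3 repeat 2. *Usp7*, the deubiquitinase that stabilizes UHRF1 and DNMT1, had 92.1 to 98.0 CPM with the BCL6-insufficient label and 38.6 to 57.9 with the wild-type label (log2 fold change 0.98, edgeR adjusted p = 2.9e-05). *Uhrf2*, the paralog of *Uhrf1*, had 52.4 to 55.6 and 30.2 to 39.0 (0.66, edgeR adjusted p = 0.00193). *Uhrf2* was called in 13 of 17 other settings, and not with technical repeat 1 only (edgeR adjusted p = 0.058) or in the 3 TPM fits (limma adjusted p up to 0.132). *Pclaf*, a PCNA-binding protein of replicating DNA, was also higher (0.28, edgeR adjusted p = 0.0205), and so was *Trim28*, a corepressor that protects methylated imprints (0.33, edgeR adjusted p = 0.0232). The calls of *Pclaf* and *Trim28* held in 1 and 2 of the 6 fits that left out a mouse, with adjusted p up to 0.0885 and 0.105. *Pcna*, the replication clamp, was not called (0.14, edgeR adjusted p = 0.274).

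Among 7 other methyl-CpG readers tested, *Mbd3* was higher and *Mbd1* lower, where 9.17% of all genes tested were higher and 8.82% lower. Over the other settings and the fits without a mouse, 0 or 1 was higher and 0 to 2 were lower. *Mbd3*, whose product takes the place of MBD2 in a separate form of NuRD, had 54.8 to 71.8 CPM with the BCL6-insufficient label and 41.0 to 46.8 with the wild-type label (log2 fold change 0.52, edgeR adjusted p = 0.00897). Its call was lost without BCL6-insufficient mouse 3 (0.41, edgeR adjusted p = 0.0577) and held in 12 of 17 other settings. The ratio of *Mbd2* to *Mbd3* counts was 1.24, 1.21 and 1.12 in the mice labelled BCL6-insufficient and 0.640, 0.835 and 0.780 in those labelled wild-type. *Mbd1*, another methyl-CpG-binding repressor, had 25.5 to 34.3 and 36.8 to 46.5 CPM (-0.57, edgeR adjusted p = 0.0159), a call kept in 2 of 6 fits without a mouse (adjusted p up to 0.0777).

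The 12 NuRD subunits did not move one way: 3 were higher and 4 lower, with a median of -0.01, and 8 of 12 did not overlap between mice, where 9.17% of all genes tested were higher, 8.82% lower and 34.4% without overlap. The number higher was 1 with technical repeat 2 only and without wild-type mouse 2 repeat 1 and wild-type mouse 3 repeat 2, 0 in the 3 TPM fits, 4 with GC and length trends removed, and 2 or 3 without a mouse. The number lower was 3 with technical repeat 1 only, 1 with log2(TPM + 1) over all genes and 4 without any one mouse. The lower ones were the histone-binding proteins *Rbbp4* (log2 fold change -0.69, edgeR adjusted p = 4.8e-05) and *Rbbp7* (-0.50, edgeR adjusted p = 0.000728), the deacetylase *Hdac1* (-0.53, edgeR adjusted p = 0.000737) and the scaffold *Mta2* (-0.52, edgeR adjusted p = 0.00048). *Rbbp4* had 201 to 233 CPM with the BCL6-insufficient label and 325 to 373 with the wild-type label. *Rbbp7* was called in 15 of 17 other settings. Its call was lost with technical repeat 1 only (-0.36, edgeR adjusted p = 0.0929) and with log2(TPM + 1) over all genes (-0.60, limma adjusted p = 0.0559). The higher ones were the remodeller *Chd4* (0.44, edgeR adjusted p = 0.00377), the bridge to MBD2 *Gatad2b* (0.67, edgeR adjusted p = 0.00255) and the small subunit *Cdk2ap1* (0.34, edgeR adjusted p = 0.0347). *Chd4* had 216 to 234 and 145 to 179 CPM. *Chd4* was called in 12 and *Gatad2b* in 13 of 17 other settings, and with technical repeat 2 only both were lost (edgeR adjusted p = 0.0794 and 0.163). The call of *Cdk2ap1* held in 1 of 6 fits without a mouse (adjusted p up to 0.163), and its direction turned with technical repeat 1 only (-0.09).

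On the erasing side, 13 of the TET partners and 2-oxoglutarate genes were tested. None was higher and 4 were lower, with a median of -0.41, and 12 of the 13 had a negative log2 fold change, where 8.82% of all genes tested were lower. The number lower depended on the setting: it was 0 with technical repeat 1 only and with log2(TPM + 1) over all genes, 2 in the other TPM fits, 6 with DESeq2 and with technical repeat 2 only, and 8 with voom and with the replicate block. With technical repeat 2 only, voom or the block, 1 gene was higher. It was 6 without BCL6-insufficient mouse 3 and 3 or 4 without any other mouse. *Sdha*, a subunit of the succinate dehydrogenase that removes the succinate TET enzymes make, had 132 to 154 CPM with the BCL6-insufficient label and 205 to 244 with the wild-type label (log2 fold change -0.64, edgeR adjusted p = 0.000169). The mitochondrial isocitrate dehydrogenases, which make 2-oxoglutarate, were lower for *Idh2* (-0.58, edgeR adjusted p = 0.00576) and *Idh3a* (-0.55, edgeR adjusted p = 0.00484). *Idh3b* (-0.08, edgeR adjusted p = 0.647) and *Idh3g* (-0.26, edgeR adjusted p = 0.0771), of the same enzyme as *Idh3a*, were not called. Nor was *Idh1* (-0.71, edgeR adjusted p = 0.241). *Cxxc1*, counted in this list, binds unmethylated CpG and is not an established TET partner. It was lower too (-0.46, edgeR adjusted p = 0.0199), a call kept in 3 of 6 fits without a mouse (adjusted p up to 0.121). *Ogt*, a sugar transferase that binds TET proteins, had a log2 fold change of 0.33 and was not called (edgeR adjusted p = 0.0899). Of 13 base excision genes, none was higher and 1, near the 8.82% of all genes, was lower: *Ung*, the uracil glycosylase (-0.45, edgeR adjusted p = 0.0174, kept in 3 of 6 fits without a mouse, up to 0.0974). *Ung* was called in 14 of 17 other settings, and with each technical repeat alone no base excision gene was called lower. *Tdg*, the glycosylase that removes the oxidized bases, stood at -0.32 (edgeR adjusted p = 0.158).

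The methyl donor cycle, which makes the S-adenosylmethionine that the methyltransferases use, had 1 of 13 genes higher and 3 lower (median -0.10), where 9.17% of all genes tested were higher and 8.82% lower. The number lower was 1 with each technical repeat alone, 2 or 0 in the TPM fits, and 1 to 3 without a mouse, with 1 in the fit without wild-type mouse 3. The number higher was 2 with DESeq2, upper-quartile scaling, at least 10 counts in every library, voom or GC and length trends removed. It was 0 with each technical repeat alone, in the 3 TPM fits, without wild-type mouse 2 repeat 1 and wild-type mouse 3 repeat 2, and without mouse 1 or mouse 2 of either label. *Ahcy*, which clears the inhibitory by-product of methylation, had 65.3, 77.4 and 81.3 CPM in the mice labelled BCL6-insufficient and 119, 126 and 166 in those labelled wild-type (log2 fold change -0.88, edgeR adjusted p = 6.4e-05). Its relative *Ahcyl1* had 22.6 to 25.9 and 12.2 to 18.2 CPM (0.61, edgeR adjusted p = 0.035). *Mat2b*, a regulatory subunit of the donor synthase (-0.41, edgeR adjusted p = 0.0188), and *Shmt1*, a folate-cycle enzyme (-0.57, edgeR adjusted p = 0.0413), were lower. Without a mouse, *Mat2b* was called in 4, *Ahcyl1* in 1 and *Shmt1* in 1 of 6 fits, with adjusted p up to 0.0842, 0.172 and 0.227. The catalytic subunit *Mat2a* stood at -0.06 (edgeR adjusted p = 0.746).

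**Figure D5:**
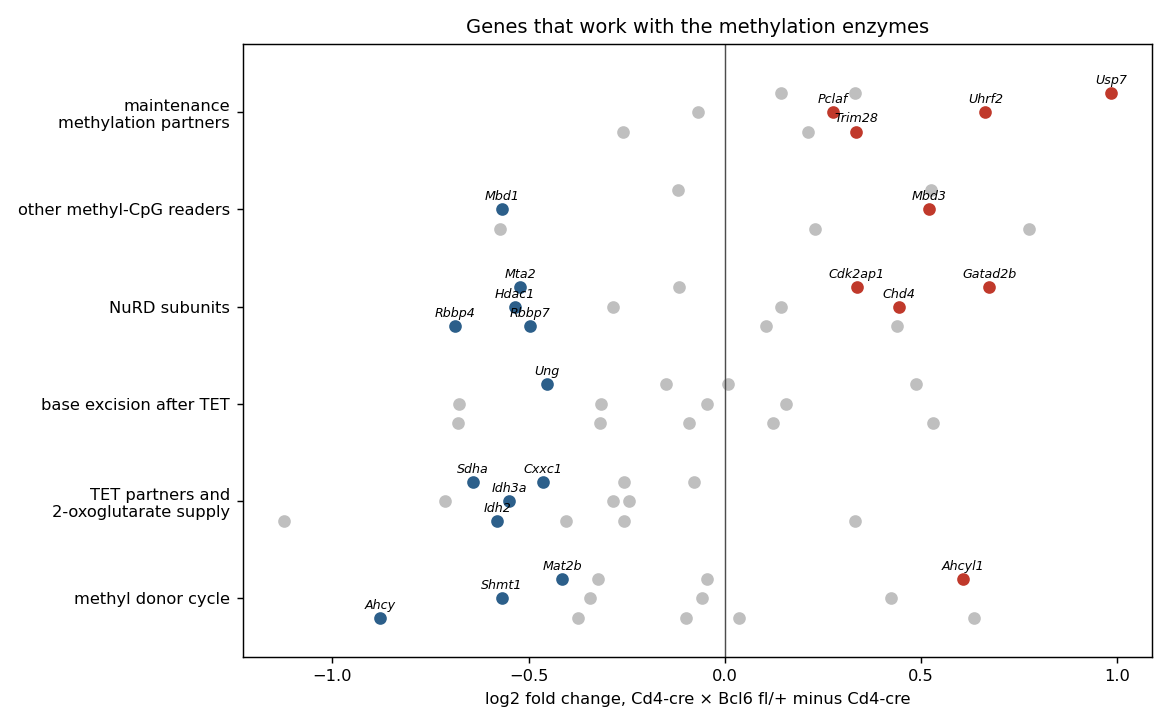
log2 fold change (horizontal axis, BCL6-insufficient label minus wild-type label) of the 67 tested genes of 6 lists, with 1 point per gene. Red and blue points are genes called higher and lower and are named, and grey points were not called. Maintenance partners had 4 genes called, all higher, and TET partners and 2-oxoglutarate genes had 4 called, all lower.

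Germline genes that methylation normally holds silent were barely seen. Of 15 germline genes, 6 were in the table and 1, *Brdt*, passed the filter, and their summed level was 0.103 to 3.35 CPM with the BCL6-insufficient label and 0.178 to 2.2 with the wild-type label. Of 16 imprinted genes, 9 were in the table and 2 were tested. *Kcnq1ot1*, a noncoding RNA made from the unmethylated allele, had 54.5 ± 6.12 CPM (SD, n = 3) and 34.7 ± 4.14 (SD, n = 3), a log2 fold change of 0.65 (edgeR adjusted p = 0.00269). *Igf2r* stood at 0.67 (edgeR adjusted p = 0.0759). DNA methylation itself was not measured. Because *Uhrf1* and *Dnmt1* are made mostly in dividing cells, 32 genes of S phase and mitosis were set beside them. Their summed level was 8713 to 8937 CPM with the BCL6-insufficient label and 8711 to 9179 with the wild-type label. In this list 7 genes were lower, where 8.82% of all genes tested were lower and 9.17% higher, among them the replication helicase genes *Mcm4* (-0.43), *Mcm5* (-0.48), *Mcm6* (-0.41) and *Mcm7* (-0.40), and 2 were higher, *Mki67* (0.63) and *Top2a* (0.54), while 23 were not called. The helicase genes *Mcm2* (-0.21, edgeR adjusted p = 0.196) and *Mcm3* (-0.08, edgeR adjusted p = 0.60) were among those not called. The part of the cell cycle in the level of *Uhrf1* was not tested.

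The genes whose profile over the 6 mice lay nearest to a called member were found by the root mean square difference of centred log2 CPM, as a description. Nearest to *Uhrf1* were *Cdk2* (0.0536), a kinase of S phase entry, *Eri1* (0.0560), an exonuclease of histone RNA, and *Itpa* (0.0583), which clears inosine nucleotides. Nearest to *Tet3* were *R3hdm4* (0.0576), *Zyx* (0.0614), a protein of cell adhesions, and *Scand1* (0.0618). Nearest to *Mbd2* were the pseudogene *Gm28437* (0.0651), whose reads may be shared with its parent gene, *Ide* (0.0812), the insulin-degrading protease, and *Bcl6* (0.11), the gene whose allele the genotype changes.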

How the data were processed

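RNA of day 3 Tfh cells was analysed in 12 libraries from 6 mice. Per the labels and methods, the authors used the SMART-Seq2 protocol on about 200 cells per library, aligned reads to GRCm38 (mm10) with HISAT2 2.2.1 and counted them per gene with HTSeq; the deposited values are raw counts, with TPM values that the authors derived from them. The annotation release was not given in the sources used here. Repeats were summed per mouse, and 3 mice were compared with 3 by edgeR 4.0.16 in R 4.3.3 (TMM, filterByExpr, quasi-likelihood test, Benjamini-Hochberg adjustment over 12719 genes). The genes and lists were chosen with earlier results of these data known. Named genes are the 8 genes, up to 4 called genes of smallest p per direction in each of 6 lists, the 3 nearest profiles of each called gene, and *Bcl6*; other genes of the lists were named after their values were seen. Positions came from GENCODE M21 (GRCm38), in which 23822 symbols matched by name and 209 by another symbol. Alternatives were DESeq2 1.42.0, limma 3.58.1 (voom, and log2 TPM with pseudocounts of 1 and 0.1), other scalings and filters, each repeat alone, a replicate block, removal of GC and length trends with mgcv 1.9.3, and leaving out each mouse. The procedures were tested on simulated counts. One ribosomal RNA row held 12.0% to 20.9% of a library. The chi-square per gene between paired repeats was 6.42 to 16.1, above counting error. Reads carry no molecular identifiers, so counting error is only a lower limit.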

Additional observations from a re-analysis of the deposited data

Results flagged for a closer look

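*Dnmt1* in technical repeat 1 of BCL6-insufficient mouse 1 stood at 446.7 CPM, apart from the other 5 libraries of its label, whose median was 410 (gap to the nearest of 0.637 of the whole range, past Dixon's 95% limit). It was the only one among 16 groups of 6 libraries to pass this limit, where chance gives about 0.8.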

How the results depend on the processing

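*Mbd2* was called higher in every one of the 17 other settings and 6 fits without a mouse, and it was the only member called higher in each. The number of members called lower, 2 in the reported fit, was 0 with technical repeat 1 only and with log2(TPM + 1) over all genes. It was 1 with technical repeat 2 only, log2(TPM + 1), log2(TPM + 0.1), and with wild-type mouse 2 repeat 1 and wild-type mouse 3 repeat 2 left out (added after seeing the data, as were offsets for exon length), and 1 to 2 when each mouse was left out. Genes called over the table, 2288 in the reported fit, numbered 1059 with repeat 1 only, 1446 with repeat 2 only, 1305 with log2(TPM + 1), 1260 with log2(TPM + 0.1), 221 with log2(TPM + 1) over all genes, 1233 without those 2 libraries, and 1424 to 1972 when each mouse was left out, the lowest without wild-type mouse 3. The split of higher to lower calls was 1166 to 1122, and it was 1331 to 957 with upper-quartile scaling, 390 to 915 with log2(TPM + 1), 374 to 886 with log2(TPM + 0.1) and 78 to 143 with log2(TPM + 1) over all genes. Over all genes, the median log2 fold change was 0.011 in the reported fit and -0.111 on log2(TPM + 0.1). The cause of these shifts was not tested.

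The direction of members that were not called turned in some settings. *Dnmt1* was -0.0194 with log2(TPM + 1), filtered or over all genes, and -0.0199 with log2(TPM + 0.1). *Dnmt3a* was 0.0201 with repeat 1 only. *Dnmt3b* was -0.13 with repeat 2 only, -0.14 with voom, -0.0234 without the 2 libraries and -0.32 to 0.23 when each mouse was left out. *Tet1* was -0.32 with repeat 1 only, -0.23 with GC and length trends removed, -0.0787 with the replicate block as well, -0.11 with exon length and -0.26 to 0.62 when each mouse was left out, and it did not pass the filter of at least 10 counts in every library. *Tet2* was -0.19 with repeat 2 only, -0.0482 with GC and length trends removed, -0.0389 with the block as well, -0.0148 with exon length and -0.10 to 0.28 when each mouse was left out. Of the genes of the lists, *Cdk2ap1* turned to -0.0901 with repeat 1 only.

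With the replicate number as a block, 2579 genes were called, 1 member higher and 2 lower. Deviations of same-numbered mice had correlations across genes of 0.0852, -0.0283 and 0.0247, and not every mouse correlated best with its own number. With 3 mice per label, these values cannot show whether the numbers pair the mice. The low counts of *Tet1* and *Dnmt3b* limit what could be detected for them, and 3 mice per label limit every test.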
